A study of Homo sapiens with 6 samples.

Results

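The genes described here come from both genomes of the cell, and most encode subunits of the 5 mitochondrial respiratory chain complexes, ATP synthase included. They are the protein-coding rows of the deposited FPKM table whose GENCODE 29 symbol starts with NDUFA, NDUFB, NDUFC, NDUFS or NDUFV and a number, with SDHA to SDHD, with UQCR, with COX4 to COX8, with ATP5, or with MT-ND, MT-CO, MT-CYB or MT-ATP. The rule gave 100 of 32434 gene IDs, 87 in the nucleus and 13 in mitochondrial DNA. It used names and no measured value. FPKM stands for fragments per kilobase of exon, scaled to a library size, and is a level per gene length. COX6A2, COX7B2 and NDUFC2-KCTD14 fit the name rule and were not analysed here.

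RNA sequencing compared SK-N-BE(2) cells, an established human neuroblastoma line, in 3 libraries that carried a hairpin against MYT1 (shMYT1) and 3 that carried a control hairpin (shNC). MYT1 encodes a zinc-finger transcription factor, and the title of the series ties it to retinoic acid signalling and differentiation. Both groups are the same line, grown in RPMI medium with serum. Lentivirus was applied for 24 h and puromycin selection for 48 h, per the protocols, which describe a stable knockdown, while the genotype and design fields speak of a knockout. The sources name 1 hairpin label per group and do not say whether the 3 libraries of a group were separate cultures, so the p-values measure the spread between these libraries.

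The respiratory chain sits in the inner mitochondrial membrane. Complexes I and II take electrons from NADH and succinate and hand them to ubiquinone, complex III passes them to cytochrome c, and complex IV passes them to oxygen. Complexes I, III and IV pump protons, and complex V, ATP synthase, makes ATP as the protons flow back. Mitochondrial DNA encodes core membrane subunits of complexes I, III, IV and V, and the nucleus encodes all other subunits, among them all of complex II. Mitochondrial mRNAs are cut from long transcripts of each strand.

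The targeted gene was checked first. MYT1 stood at 5.73, 5.12 and 5.18 FPKM in shNC and at 4.20, 4.13 and 4.36 FPKM in shMYT1. The groups did not overlap, and the difference of means was -20.8% (log2 fold change -0.28, SE 0.05, limma adjusted p = 0.0102). An exact permutation test of the 6 values (two-sided) gave p = 0.1, the smallest that 3 against 3 can give. The libraries held 21.1 to 21.7 M fragments in shNC and 18.2 to 20.3 M in shMYT1. All noradrenergic neuroblastoma markers listed were detected (8 of 8), with a summed level of 2897 to 3053 FPKM in shNC and 2508 to 2607 FPKM in shMYT1, of which MYCN held most. Of those 8, 3 rose and 3 fell. The 2 immune markers found summed to 0.0713 to 0.156 FPKM in shNC and 0.0827 to 0.0990 FPKM in shMYT1. The 3 endothelial markers summed to 0.0771 to 0.132 and 0.244 to 0.282 FPKM, without overlap, and the 4 glial markers to 2.10 to 2.25 FPKM in shNC and 2.55 to 3.26 FPKM in shMYT1. Each endothelial marker averaged at most 0.119 FPKM, where 3 fragments on 1 kb of exon amount to 0.140 to 0.170 FPKM. No endothelial marker was tested. The 7 fibroblast and smooth muscle markers summed to 157 to 162 FPKM in shNC and 110 to 113 FPKM in shMYT1, with LUM, at 93.7 to 102 and 52.4 to 58.1 FPKM, holding most of that difference. Of the 6 tested, ACTA2 and TAGLN rose and COL1A1, DCN and LUM fell, with log2 fold changes from -0.83 (LUM) to 0.54 (TAGLN). What part any of these differences has in the results was not tested.

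The sequences behind several results are shown first. The mitochondrial ATP8 and ATP6 reading frames overlap and are carried by 1 mRNA, and so are ND4L and ND4. The mRNA bases that lie in both genes of a pair are in capitals. First comes the whole of MT-ATP8, whose last 46 bases are also the start of MT-ATP6. Then come the last 60 bases of MT-ND4L and the first 60 of MT-ND4, which overlap by 7 bases. All are from the GENCODE 29 transcripts.
MT-ATP8: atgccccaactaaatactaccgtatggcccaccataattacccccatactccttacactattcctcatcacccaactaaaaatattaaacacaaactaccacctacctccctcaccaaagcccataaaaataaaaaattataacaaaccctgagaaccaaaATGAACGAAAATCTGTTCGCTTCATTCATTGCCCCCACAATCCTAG
MT-ND4L end: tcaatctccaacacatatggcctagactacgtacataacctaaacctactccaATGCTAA
MT-ND4 start: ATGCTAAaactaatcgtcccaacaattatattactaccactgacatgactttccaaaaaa

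The hinge protein of complex III has a near-identical second gene, so fragments of UQCRH and UQCRHL can be mistaken for each other. Their coding sequences of 276 bases differ at 4 bases, in capitals here, and are 98.55% identical.
UQCRH: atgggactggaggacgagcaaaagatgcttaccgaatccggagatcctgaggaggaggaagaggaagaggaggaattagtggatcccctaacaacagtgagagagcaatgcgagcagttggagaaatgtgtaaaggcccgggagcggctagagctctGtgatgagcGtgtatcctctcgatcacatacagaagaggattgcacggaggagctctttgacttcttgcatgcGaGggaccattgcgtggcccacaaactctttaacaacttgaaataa
UQCRHL: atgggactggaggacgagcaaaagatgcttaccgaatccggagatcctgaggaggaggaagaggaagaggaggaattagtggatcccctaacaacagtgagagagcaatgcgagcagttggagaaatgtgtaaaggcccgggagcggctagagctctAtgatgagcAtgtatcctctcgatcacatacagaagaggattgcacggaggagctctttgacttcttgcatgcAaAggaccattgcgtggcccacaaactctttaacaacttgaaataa

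Many nuclear respiratory genes are known to be read through sites for nuclear respiratory factor 1 (NRF1), ETS-family factors such as GABPA, and YY1 near the transcription start. Windows of 300 bases, 250 before and 50 after a RefSeq start (GRCh38.p14), were found for 67 of the 87 nuclear members. The NRF1 letters (GCGC, any base, TGCGC) occurred on either strand in 17 of these members, in 21.2% of their 80 windows and in 5.78% of all 35116 windows of the table. CCGGAAG (ETS) occurred in 21 members, in 27.5% of their windows against 10.3% of all. The third motif, AAGATGGCG (YY1), occurred in 9 members, in 12.5% of their windows against 1.75% of all. Of the members with a window, the NRF1 letters were in 4 of 11 that rose in shMYT1, in the 1 that fell and in 11 of 52 that did neither. The ETS letters were in 4 of 11, 0 of 1 and 17 of 52, and the YY1 letters in 1 of 11, 0 of 1 and 8 of 52. Such a match is a description of the letters and not a bound site.

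The stretches before the first annotated exon of the called members with the deepest fall and the steepest rise are printed with their NRF1 letters in capitals. NDUFB4 (chr3:120596086-120596308, plus strand) holds them 159 and 63 bases before its RefSeq start, and NDUFA3 (chr19:54102605-54102727, plus strand) 170 bases before. These are parts of RefSeq windows of GRCh38.p14 and both are read on the strand of the gene. GCGCAGGCGC and GCGCACGCGC fit the letters on the opposite strand. The whole window holds 3 matches in NDUFB4 and 2 in NDUFA3, the further match of each reaching past the printed stretch.
NDUFB4: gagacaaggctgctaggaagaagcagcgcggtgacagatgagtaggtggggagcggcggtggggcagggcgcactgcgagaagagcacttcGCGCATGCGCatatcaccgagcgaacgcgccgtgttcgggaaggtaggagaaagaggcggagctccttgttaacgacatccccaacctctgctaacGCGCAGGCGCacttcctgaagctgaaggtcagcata
NDUFA3: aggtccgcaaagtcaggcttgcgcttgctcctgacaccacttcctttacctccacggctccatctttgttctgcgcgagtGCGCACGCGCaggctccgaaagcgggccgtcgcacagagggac

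More respiratory chain genes rose in shMYT1 than fell, and the differences were small. Of 92 members tested (those averaging 1 FPKM or more), 20 rose and 4 fell at limma adjusted p under 0.05, and 68 did neither. Among all 14106 genes tested, 24.2% were called, 11.9% as rising and 12.3% as falling, so the share of members called was near that of all genes while the split by direction was not even. Of the 79 nuclear members tested, 17 rose and 4 fell. Of the 13 mitochondrial members, 3 rose and 0 fell (4 and 0 at an unadjusted limma p under 0.05, 6 and 0 with voom on recovered fragments). The median log2 fold change was 0.07 over the nuclear members and 0.06 over the mitochondrial ones, against -0.005 over all genes tested. Positive values were found in 57 of 79 nuclear and 12 of 13 mitochondrial members. Every shMYT1 library was above every shNC library for 28 nuclear and 5 mitochondrial members, and below for 7 and 0, where 42.3% of all genes tested did not overlap, 20.5% above and 21.8% below. The number of nuclear members that rose was 10 when every library was rescaled to 1 common FPKM total, and 8 without shNC replicate 2. On that rescaling the medians were 0.04 for nuclear and 0.02 for mitochondrial members against -0.035 for all genes. Under quantile normalization 1 mitochondrial member, MT-CO3, was called as falling (-0.10). That method gives every library the same set of values, so the highest genes differ by rank alone. MT-CO3 ranked above MT-CO2 in shNC and below it in shMYT1, while its FPKM was higher in every shMYT1 library.

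**Figure D1:**
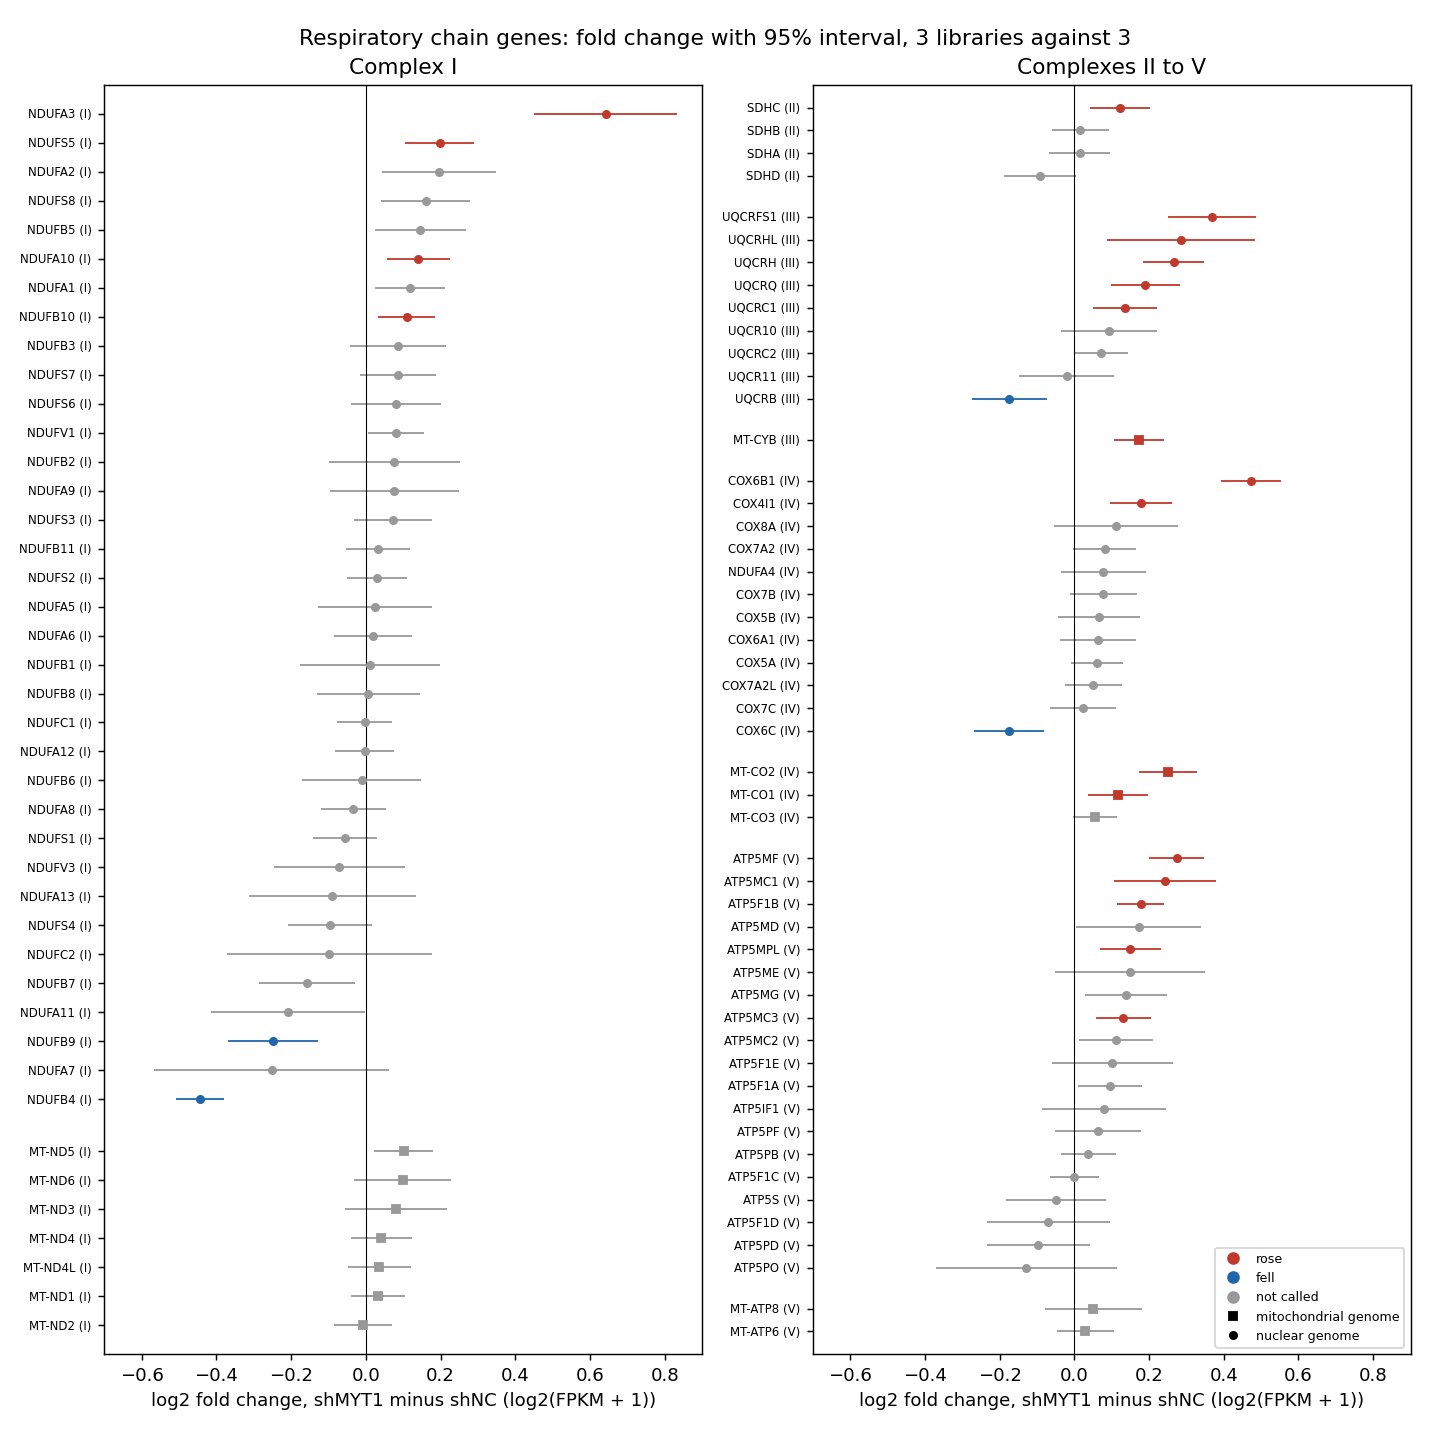
Log2 fold change (shMYT1 minus shNC, log2(FPKM + 1)) of the 92 tested members with 95% interval, by complex and within it by genome. Circles are nuclear and squares mitochondrial genes, in red where they rose, in blue where they fell and in grey where neither was called. Most points lie right of 0, with NDUFA3 at 0.64 and NDUFB4 at -0.44 at the ends.

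Summed over members, the nuclear genes held 3735 to 3824 FPKM in shNC and 3923 to 4123 FPKM in shMYT1. These ranges did not overlap, and the means were 6.27% apart. The mitochondrial genes held 55940 to 58376 and 60500 to 61474 FPKM, means 6.53% apart. The ratio of the mitochondrial to the nuclear sum was 14.6 to 15.6 in shNC libraries and 14.7 to 15.4 in shMYT1 libraries, ranges that overlapped. As a share of total FPKM the mitochondrial members made up 18.7 to 19.7% (shNC) and 19.8 to 20.1% (shMYT1). The sum over all gene IDs was itself 2.56% higher in shMYT1, and with every library brought to 1 common FPKM total the nuclear members were 3.62% and the mitochondrial members 3.86% higher. The nuclear sums by complex were higher in shMYT1 by 13.9% in complex III, 7.0% in complex IV and 8.82% in complex V, or by 11.1%, 4.33% and 6.10% on the common total. Those of complexes I and II were 2.52% and 0.322% higher as deposited, and differed by -0.033% and -2.18% on the common total, so that their direction turned with the scaling.

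Complex I, which oxidises NADH, is the largest group. Of its 35 tested nuclear members, 4 rose (NDUFA3, NDUFS5, NDUFA10 and NDUFB10) and 2 fell (NDUFB4 and NDUFB9), with a median log2 fold change of 0.02. That is 17.1% called, against 24.2% of all genes tested. Levels ran from NDUFA7, an accessory subunit of the NADH-oxidising arm, at a mean of 1.07 FPKM, to NDUFS5 at 361 FPKM. None of the 9 tested subunits of the NADH-oxidising arm and none of the 6 of the quinone-binding arm was called by limma, where 2 and 1 had positive values at an unadjusted p under 0.05, and voom called 1 in each arm. The 6 quinone-binding subunits all had positive values, from 0.02 to 0.16. The limma calls lay in the membrane arm. There 3 of 9 proximal subunits rose and, of 11 distal subunits, 1 rose and 2 fell. These shares, 33.3% and 27.3%, were near that of all genes, and the placement was not tested.

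NDUFB4, an accessory subunit of the distal membrane arm, had the lowest log2 fold change of all members tested. It stood at 71.5, 74.2 and 70.7 FPKM in shNC and at 52.4, 52.9 and 52.8 FPKM in shMYT1. The shMYT1 libraries were tightly grouped, far below the control libraries. The difference was -26.9% (log2 fold change -0.44, SE 0.03, limma adjusted p = 0.000188), and it was called in all 17 alternatives. In percent NDUFA7 differed by more (-30.0%), from 1.26 to 0.880 FPKM on 20 to 51 fragments a library, without overlap. NDUFA7 was not called (log2 fold change -0.25, limma adjusted p = 0.219).

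NDUFA3, a small subunit of the proximal membrane arm, had the steepest rise. It stood at 5.98, 6.47 and 6.72 FPKM in shNC and at 12.0, 10.0 and 9.71 FPKM in shMYT1. All shMYT1 libraries were higher, with replicate 1 above the other two. The difference was 65.3% (log2 fold change 0.64, SE 0.08, limma adjusted p = 0.00235). Its exons overlap those of TFPT on the opposite strand, and the counting strand is not given in the sources used here.

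NDUFS5, an accessory subunit with paired cysteines that faces the intermembrane space, stood at 351, 325 and 331 FPKM in shNC. Its shMYT1 libraries held 377, 399 and 380 FPKM, above all control libraries (14.8%, log2 fold change 0.20, SE 0.04, limma adjusted p = 0.0125). NDUFA10 went from 11 ± 0.251 to 12.2 ± 0.357 FPKM and NDUFB10 from 58.3 ± 2.01 to 63.0 ± 0.779 FPKM (SD, n = 3 per group, limma adjusted p = 0.0308 and 0.0473). Both are accessory subunits of the membrane arm, and each kept its call in 1 of 6 fits that left out a library. NDUFB9, a distal subunit on chromosome 8, stood at 49.5, 49.5 and 54.3 FPKM in shNC and at 42.1, 45.2 and 41.1 FPKM in shMYT1. The groups did not overlap (-16.2%, log2 fold change -0.25, SE 0.05, limma adjusted p = 0.0148).

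The 7 complex I genes of mitochondrial DNA encode the proton-pumping core of the membrane arm, and limma called none (voom called 2, MT-ND5 and MT-ND6). MT-ND5 came nearest, at 1584, 1489 and 1494 FPKM in shNC and 1606, 1667 and 1627 FPKM in shMYT1. Its groups did not overlap (log2 fold change 0.10, SE 0.03, limma adjusted p = 0.0677). The other 6 (MT-ND1, MT-ND2, MT-ND3, MT-ND4, MT-ND4L and MT-ND6) overlapped between groups, with log2 fold changes from -0.01 in MT-ND2 to 0.10 in MT-ND6. MT-ND6 is the only mRNA of these genes on the opposite strand of mitochondrial DNA, and stood at 1943 ± 139 FPKM in shNC and 2079 ± 70.5 FPKM in shMYT1 (SD, n = 3 per group). MT-ND1 and MT-ND2 stood at 2971 ± 16.4 and 2637 ± 89.9 FPKM in shNC, and at 3039 ± 96.4 and 2620 ± 36.7 FPKM in shMYT1 (SD, n = 3 per group).

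Complex II, succinate dehydrogenase, is encoded by the nucleus alone and showed 1 call among its 4 genes. That is 25%, where 24.2% of all genes tested were called. SDHA, the flavoprotein that oxidises succinate, stood at 14.9 ± 0.286 and 15.1 ± 0.463 FPKM in shNC and shMYT1, and SDHB, the iron-sulphur subunit, at 18.0 ± 0.455 and 18.2 ± 0.335 FPKM (SD, n = 3 per group). Their log2 fold changes were both 0.02, with 95% intervals from -0.07 to 0.10 and from -0.06 to 0.09. SDHC, a membrane anchor that carries haem, stood at 8.43, 8.47 and 8.37 FPKM in shNC and at 9.22, 9.53 and 9.04 FPKM in shMYT1. Its groups did not overlap (log2 fold change 0.12, SE 0.03, limma adjusted p = 0.0395). The call was lost in all 6 fits that left out a library (limma adjusted p from 0.0575 to 0.103). SDHD, the other anchor, stood at 15.9 ± 0.716 and 14.8 ± 0.374 FPKM (SD, n = 3 per group), and its groups overlapped.

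Complex III had the largest share of calls, with 5 of its 9 tested nuclear members rising, 1 falling and the mitochondrial member rising. Of its nuclear members 66.7% were called, against 24.2% of all genes tested. UQCRFS1, the Rieske iron-sulphur protein that takes electrons from ubiquinol, stood at 14.2, 14.0 and 14.6 FPKM in shNC. It stood at 17.5, 19.9 and 19 FPKM in shMYT1, all higher (31.4%, log2 fold change 0.37, SE 0.05, limma adjusted p = 0.00312). Its exons overlap those of AC007786.1 on the opposite strand. UQCRH, the acidic hinge protein next to cytochrome c1, stood at 147, 154 and 150 FPKM in shNC and at 173, 186 and 184 FPKM in shMYT1. All shMYT1 libraries were higher (20.5%, log2 fold change 0.27, SE 0.03, limma adjusted p = 0.00260). Its near-copy UQCRHL, shown above, was far lower, at 2.31, 2.84 and 2.63 FPKM in shNC and 3.17, 3.79 and 3.18 FPKM in shMYT1. The groups of UQCRHL did not overlap (log2 fold change 0.29, SE 0.08, limma adjusted p = 0.0474), and its call was lost in all 6 omissions of a library. It rested on 108 to 146 fragments a library, against 4426 to 4871 for UQCRH, and how the counting placed fragments that fit both genes is not given in the sources used here.

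Among the other complex III members, UQCRQ, a small subunit near cytochrome b, went from 84.4 ± 2.14 to 96.5 ± 4.25 FPKM (SD, n = 3 per group, log2 fold change 0.19, limma adjusted p = 0.0147). UQCRC1, a core protein of the matrix side, went from 22.9 ± 0.391 to 25.2 ± 0.970 FPKM (SD, n = 3 per group, log2 fold change 0.14, limma adjusted p = 0.0348). It kept its call in 1 of 6 omissions. UQCRB, the ubiquinone-binding protein of complex III, was the exception, at 20.3, 20.4 and 19.3 FPKM in shNC and 17.3, 18.6 and 17.0 FPKM in shMYT1. All its shMYT1 libraries were lower (-11.9%, log2 fold change -0.17, SE 0.04, limma adjusted p = 0.0265). MT-CYB, cytochrome b itself, stood at 1733, 1641 and 1701 FPKM in shNC and at 1907, 1917 and 1900 FPKM in shMYT1. Its groups lay apart, with the shMYT1 libraries close together (12.8%, log2 fold change 0.17, SE 0.03, limma adjusted p = 0.00631).

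In complex IV, cytochrome c oxidase, 2 of 12 tested nuclear members rose and 1 fell, with a median of 0.07. That is 25% called, against 24.2% of all genes tested. COX6B1, a subunit on the intermembrane side, stood at 51.8, 50.8 and 55.0 FPKM in shNC and at 72.9, 73.2 and 73.9 FPKM in shMYT1. The groups were widely separated (39.6%, log2 fold change 0.47, SE 0.03, limma adjusted p = 0.000352). COX4I1, the largest nuclear subunit, stood at 43.3, 44.1 and 46.6 FPKM in shNC and at 49.6, 51.4 and 50.9 FPKM in shMYT1 (13.4%, log2 fold change 0.18, SE 0.03, limma adjusted p = 0.0127). All shMYT1 libraries were higher. COX6C, a membrane subunit, stood at 47.9, 47.9 and 45.5 FPKM in shNC and at 39.6, 43.1 and 42.0 FPKM in shMYT1, all lower (-11.6%, log2 fold change -0.17, SE 0.04, limma adjusted p = 0.0215).

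The mitochondrial subunits of complex IV form its catalytic core and carry its haems and copper centres. MT-CO2, which holds the first copper centre, stood at 7276, 7207 and 7340 FPKM in shNC and at 8531, 8471 and 8982 FPKM in shMYT1. It had the steepest rise of the mitochondrial members (19.1%, log2 fold change 0.25, SE 0.03, limma adjusted p = 0.00268), and the groups lay far apart. Under quantile normalization it stood at a log2 fold change of 0.10 (limma adjusted p = 0.000325), below MT-CYB at 0.20. The 0.10 reflects an exchange of ranks between MT-CO2 and MT-CO3, since the method gives every library the same set of values. MT-CO1, the subunit that reduces oxygen, was the most abundant member of all, at 10764, 10698 and 10447 FPKM in shNC and 11199, 11526 and 11897 FPKM in shMYT1. Its groups did not overlap (8.50%, log2 fold change 0.12, SE 0.03, limma adjusted p = 0.0454), and the call was kept in 1 of 6 omissions. MT-CO3 stood at 7851, 7848 and 7796 FPKM in shNC and at 8143, 8129 and 8142 FPKM in shMYT1. These groups did not overlap either, and the gene was not called (3.91%, log2 fold change 0.06, 95% interval -0.003 to 0.11, limma adjusted p = 0.155).

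**Figure D2:**
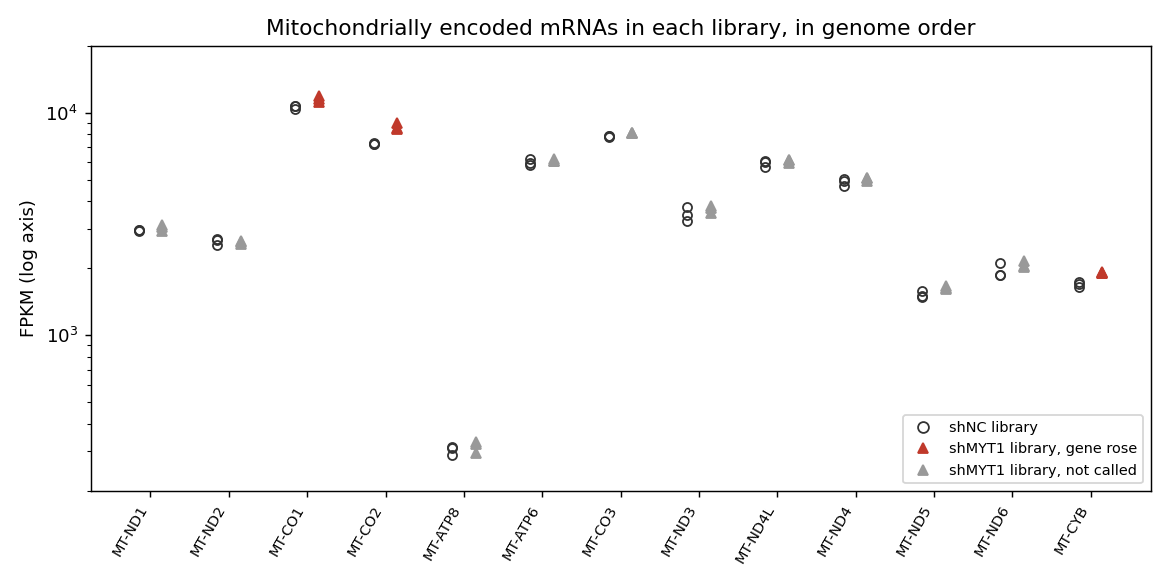
FPKM of the 13 mitochondrial mRNAs in each library on a log axis, in the order of the genes on mitochondrial DNA. Open circles are shNC libraries and triangles shMYT1 libraries, in red for the 3 genes that rose (MT-CO1, MT-CO2, MT-CYB), and MT-ATP8 lies far below the others.

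Complex V, ATP synthase, had 19 tested nuclear members, with a median of 0.10 and 26.3% called, against 24.2% of all genes tested. Of these 19, 5 rose and 0 fell. At an unadjusted limma p under 0.05 these counts were 9 and 0, and with voom also 9 and 0. ATP5F1B, the catalytic beta subunit of the F1 head, stood at 298, 304 and 310 FPKM in shNC and at 344, 338 and 349 FPKM in shMYT1. All shMYT1 libraries were higher (13.1%, log2 fold change 0.18, SE 0.03, limma adjusted p = 0.00435). Its partner ATP5F1A, the alpha subunit, stood at 20.1 ± 0.670 and 21.5 ± 0.556 FPKM (SD, n = 3 per group) and was not called (log2 fold change 0.10, 95% interval 0.01 to 0.18, limma adjusted p = 0.101). ATP5F1E, the epsilon subunit, stood at 28.2, 28.7 and 28.4 FPKM in shNC and at 31.5, 33.3 and 27.3 FPKM in shMYT1, with overlap. The 4 peripheral stalk subunits (ATP5PB, ATP5PD, ATP5PF and ATP5PO) had no call by limma, adjusted or unadjusted, or by voom, with values from -0.13 to 0.06, and each overlapped between groups.

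The c ring, the rotor of ATP synthase, is built from 1 mature protein that 3 genes encode. ATP5MC1 stood at 37.5, 35.9 and 39.5 FPKM in shNC and at 41.5, 45.1 and 47.7 FPKM in shMYT1 (18.9%, log2 fold change 0.24, SE 0.06, limma adjusted p = 0.0244). ATP5MC3 stood at 22.3, 21.8 and 23.0 FPKM in shNC and at 24.3, 24.9 and 24.5 FPKM in shMYT1 (log2 fold change 0.13, SE 0.03, limma adjusted p = 0.0249). ATP5MC2 stood at 42.1, 42.8 and 43.6 FPKM in shNC and at 43.7, 47.5 and 48.1 FPKM in shMYT1 (log2 fold change 0.11, SE 0.04, limma adjusted p = 0.0966). For all 3 every shMYT1 library was higher, and the sum of the genes was 12.5% higher in shMYT1. Over the coding end that gives the mature protein, ATP5MC1 and ATP5MC2 were 89.0% identical and ATP5MC3 was 81.1% identical to either.

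Of the other membrane subunits of ATP synthase, ATP5MF, the f subunit, stood at 38.5, 36.8 and 36.1 FPKM in shNC and at 45.3, 44.9 and 45.1 FPKM in shMYT1. The shMYT1 libraries were tightly grouped and higher (21.4%, log2 fold change 0.27, SE 0.03, limma adjusted p = 0.00160). The readthrough gene ATP5MF-PTCD1 shares its exons and stayed at a mean of 0.0228 FPKM. ATP5MPL, a small proteolipid of the complex, went from 19.5 ± 0.595 to 21.8 ± 0.540 FPKM (SD, n = 3 per group, log2 fold change 0.15, limma adjusted p = 0.0226). All 5 of these membrane subunits, ATP5ME, ATP5MG and ATP5MD included, had values from 0.14 to 0.27. ATP5S, an ATP synthase coupling factor by name, was the lowest tested member of the group at a mean of 2.21 FPKM and had a log2 fold change of -0.05 (95% interval -0.18 to 0.09).

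**Figure D3:**
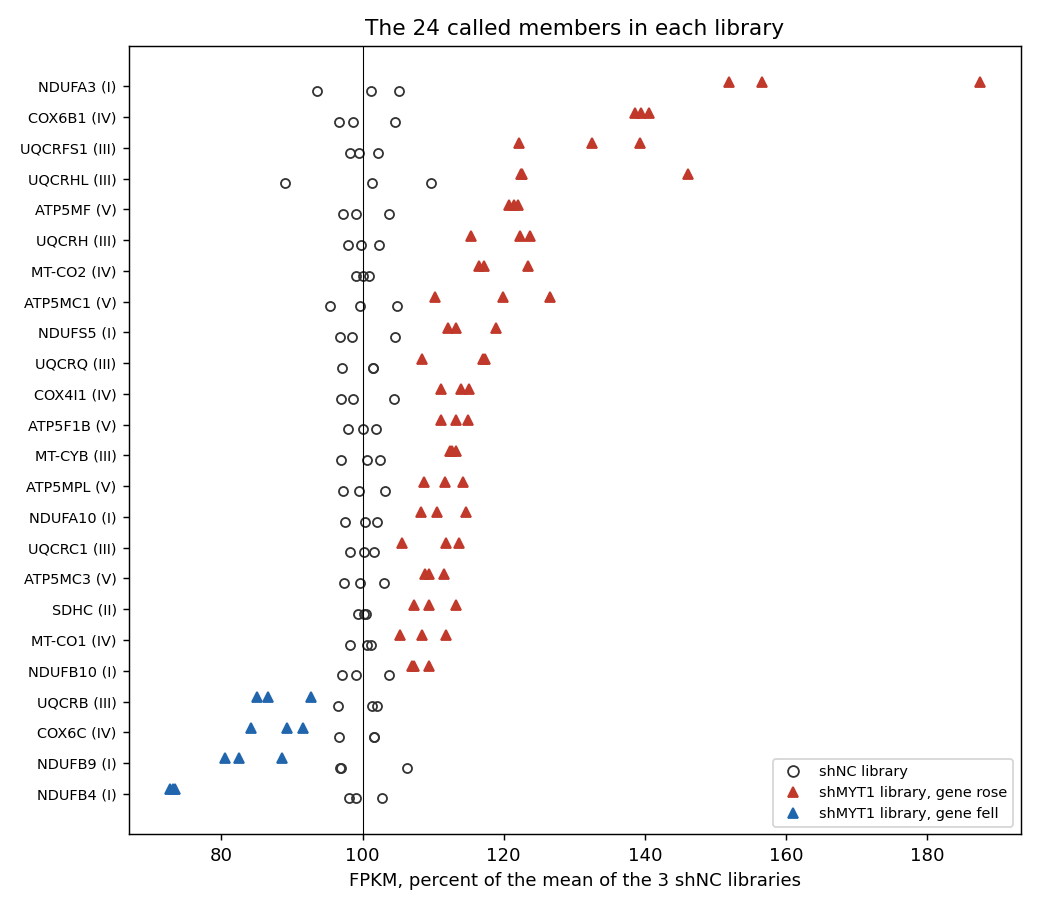
FPKM of the 24 called members in each library, as a percentage of the mean of the 3 shNC libraries, with the complex in brackets. Open circles are shNC and triangles shMYT1 libraries, red for the 20 members that rose and blue for the 4 that fell. In all 24 the triangles lie outside the range of the circles.

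Several subunits of complex IV come in pairs with different tissue use, and the forms known from heart, muscle, lung or testis were near absent. COX4I1 averaged 44.7 FPKM in shNC while COX4I2, the lung form, averaged 0.159. COX6B1 averaged 52.5 FPKM and the testis form COX6B2 0.0453. All coding bases of COX6B2 (100%) also lie in exons of AC020922.1 on the same strand, so its level is uncertain. COX7A2 and COX7A2L averaged 70.8 and 20.4 FPKM and the muscle form COX7A1 0.141. COX8A stood at 208, 227 and 249 FPKM in shNC and at 232, 250 and 256 FPKM in shMYT1, with overlap (log2 fold change 0.11, limma adjusted p = 0.294), and COX8C averaged 0.384 and 0.690 FPKM. On 1 kb of exon, 3 fragments amount to 0.140 to 0.170 FPKM. COX7A1 stood at 0.139, 0.237 and 0.0474 FPKM in shNC and at 0.299, 0.562 and 0.392 FPKM in shMYT1 on 1 to 10 fragments a library, and no fold is given for so few (limma adjusted p = 0.124 without the filter on low values). NDUFA4, a subunit of complex IV despite its name, averaged 53.4 and 56.5 FPKM, and its hypoxia-induced relative NDUFA4L2 stood at 0.979, 1.41 and 1.22 FPKM in shNC and at 0.857, 0.605 and 0.321 FPKM in shMYT1. The groups of NDUFA4L2 did not overlap, and limma without the filter on low values gave an adjusted p of 0.138. COX6A1 and COX7B, whose partners were not analysed here, averaged 33.3 and 29.4 FPKM in shNC and 34.9 and 31.1 FPKM in shMYT1, with overlapping groups.

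Position on the chromosomes moved with several of these results. For each nuclear member the median log2 fold change of up to 50 neighbouring tested genes was taken. Across 79 members this median and the member's own value had a Spearman correlation of 0.58, a description over genes that are not independent, since members on 1 chromosome share neighbours. All 3 members on chromosome 8 (NDUFB9, UQCRB and COX6C) fell, and their neighbours had medians of -0.24, -0.20 and -0.24. With the regional median subtracted their log2 fold changes were -0.01, 0.03 and 0.06 (limma adjusted p = 0.904, 0.656 and 0.310). On the long arm side of chromosome 19 all 3 tested members rose. For NDUFA3 the neighbours had a median of 0.25 and for COX6B1 0.23, and with these subtracted the values were 0.39 and 0.24 (limma adjusted p = 0.0186 and 0.00487). For UQCRFS1 the neighbours had a median of -0.01, and its value with that subtracted was 0.38. Neighbours were taken by position without regard to the arm, and UQCRFS1 lies near the start of the long arm. Its median can thus mix long arm genes with short arm genes, whose median was -0.16 around NDUFA13. Whether UQCRFS1 differs from long arm neighbours alone was not tested. On the short arm side of chromosome 19 none of 7 tested members was called by limma, 2 fell at an unadjusted p under 0.05 and with voom, 6 had negative values, and their median was -0.09. NDUFB7, the most abundant of them, stood at 139, 156 and 153 FPKM in shNC and at 127, 137 and 138 FPKM in shMYT1 (limma adjusted p = 0.0779, and called in 8 of the 17 alternatives).

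**Figure D4:**
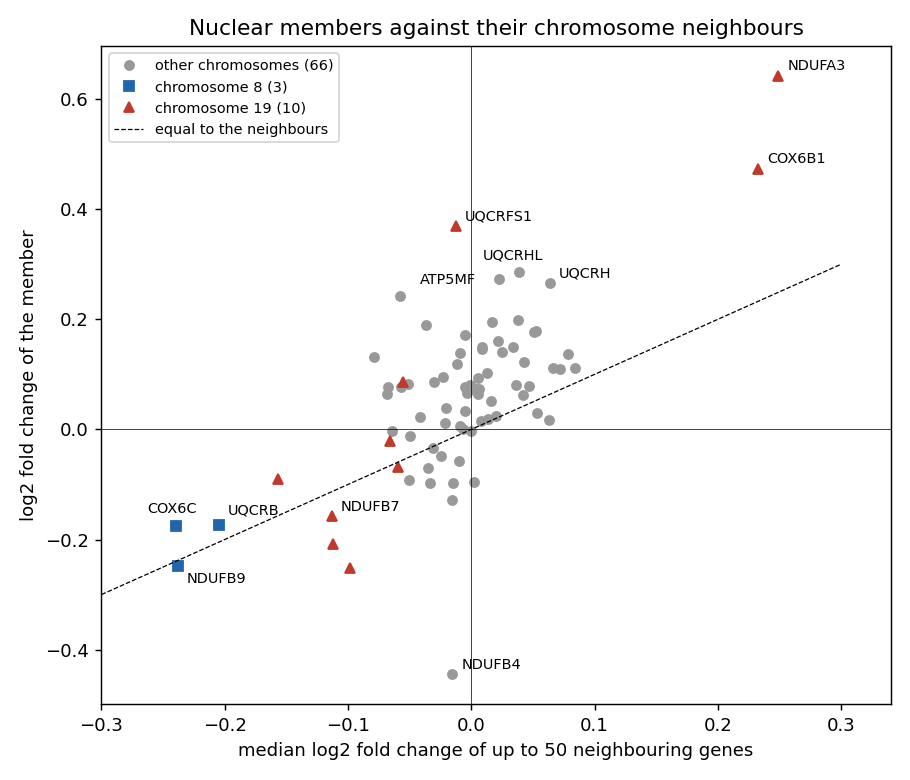
Log2 fold change of the 79 tested nuclear members against the median log2 fold change of up to 50 neighbouring genes. Blue squares are chromosome 8 (3), red triangles chromosome 19 (10) and grey circles other chromosomes (66), and the dashed line marks equality. The chromosome 8 members lie near the line, while NDUFB4 at -0.44 lies far below it and UQCRFS1 at 0.37 far above. The neighbours of UQCRFS1 can come from both arms of chromosome 19.

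Outside chromosomes 8 and 19, 14 of 66 tested nuclear members rose and 1, NDUFB4, fell, with a median of 0.08. Over all genes tested 11.9% rose and 12.3% fell. With the regional median subtracted throughout, 11 nuclear members rose and 1 fell, against 9.32% rising and 8.83% falling over all genes in the same fit. Of the 24 calls, 13 were kept in that fit. Besides the chromosome 8 members, NDUFA10, NDUFB10, SDHC, UQCRC1, UQCRHL, COX4I1, ATP5MPL and MT-CO1 lost theirs. The members kept by all 17 alternatives were NDUFA3, NDUFB4, UQCRFS1, UQCRH, COX6B1, ATP5F1B and ATP5MF. For UQCRFS1 the regional fit has the limit given above. NDUFS5, MT-CYB and MT-CO2 were kept in 16, lost with no filter on low values. These 10 also kept their calls in all 6 omissions of a library. COX4I1 and NDUFB9 kept theirs in 5 omissions (lost without shNC replicate 2 and without shMYT1 replicate 1, respectively), UQCRQ in 4 (lost without either of these libraries), and UQCRB, COX6C, ATP5MC1 and ATP5MPL in 2. ATP5MC3 kept its call in 1, without shNC replicate 3.

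Low levels in the table often went with overlapping genes. Of the 87 nuclear members, 16 have coding bases inside an exon of another annotated gene on the same strand, often a readthrough transcript. They had a median level of 5.56 FPKM, against 34.5 FPKM for the 71 others. Of the 16, 9 lay under 10 FPKM, and of the 71, 12. NDUFV2, the iron-sulphur subunit that works beside NDUFV1, shares 84.7% of its coding bases with AP005263.1. It averaged 0.726 and 0.719 FPKM in shNC and shMYT1, on 24 to 50 fragments a library, while NDUFV1 averaged 58.3 and 61.7 FPKM. NDUFA7, NDUFA13 and NDUFA9, the lowest tested members of complex I, share 78.3%, 55.2% and 67.9% of their coding bases in the same way. Of the 13 tested members that share bases, 1 rose, ATP5MF. How the counting treated fragments that lie in more than 1 gene is not given in the sources used here, and its part in these levels was not tested. Genes also overlap on the opposite strand in 36 nuclear members, 8 of them among the called ones.

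Among the mitochondrial genes, the overlapping frames shown above differed widely in level. MT-ATP8 stood at 312, 316 and 290 FPKM in shNC and at 325, 333 and 294 FPKM in shMYT1. MT-ATP6, which lies on the same mRNA, stood at 6196, 5940 and 5822 FPKM and at 6070, 6170 and 6078 FPKM. Neither was called, and the groups of both overlapped. MT-ATP8 is 207 bases long, and its last 46 also lie in MT-ATP6. How the counting treated fragments in both genes is not given in the sources used here. Its part in the gap between their levels was not tested. MT-ND4L and MT-ND4, which share 7 bases and 1 mRNA, stood closer, at 5930 ± 204 and 4895 ± 173 FPKM in shNC and 6075 ± 130 and 5037 ± 88.3 FPKM in shMYT1 (SD, n = 3 per group). MT-ND3, the short gene before them, stood at 3490 ± 252 and 3686 ± 140 FPKM (SD, n = 3 per group).

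**Figure D5:**
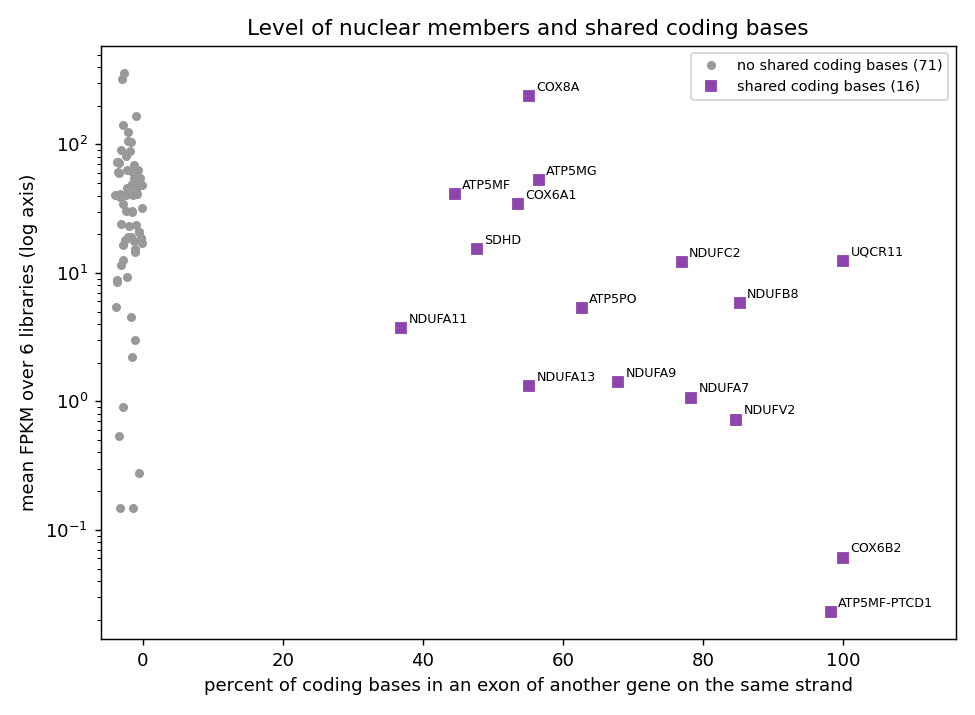
Mean FPKM over the 6 libraries (log axis) of the 87 nuclear members against the percentage of their coding bases that lie in an exon of another gene on the same strand. Grey points (71) share none and are spread sideways for legibility, and purple squares (16) share some. NDUFV2, NDUFA7, NDUFA9 and NDUFA13 stand between 0.722 and 1.40 FPKM.

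Proteins that build the chain without staying in it form a list of their own. Of 53 tested assembly factors, 1 rose and 9 fell, with a median of -0.01, beside the 11.9% rising and 12.3% falling of all genes. TMEM70, which helps to build ATP synthase, went from 12.8 ± 0.531 to 9.80 ± 0.413 FPKM, and NDUFAF6, a complex I factor, from 4.73 ± 0.0888 to 3.57 ± 0.0706 FPKM (SD, n = 3 per group, limma adjusted p = 0.00259 and 0.00216). Both lie on chromosome 8, and with the regional median subtracted neither was called (limma adjusted p = 0.112 and 0.0673). COX17, the copper chaperone of complex IV, went from 27.6 ± 0.264 to 22.7 ± 0.854 FPKM and the complex I factor ECSIT from 35.1 ± 0.798 to 29.6 ± 0.335 FPKM (SD, n = 3 per group, limma adjusted p = 0.00243 and 0.00189). COX18, which inserts MT-CO2 into the membrane, was the 1 factor that rose, from 3.68 ± 0.0433 to 4.42 ± 0.226 FPKM (SD, n = 3 per group, limma adjusted p = 0.0199). With the regional median subtracted, 0 assembly factors rose and 4 fell, COX17 and ECSIT among them (limma adjusted p = 0.00411 and 0.0208).

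Genes of the tricarboxylic acid cycle supply the electrons. Of 13 tested tricarboxylic acid cycle genes 4 rose and 0 fell (8 and 1 at an unadjusted limma p under 0.05, 6 and 0 with voom), with a median of 0.11, where 11.9% of all genes tested rose. With the regional median subtracted 2 rose and 0 fell, with a median of 0.06, where 9.32% of all genes rose. SUCLA2 and DLST, which act around succinyl-CoA, had log2 fold changes of 0.19 and 0.17. On that subtraction DLST kept its call (0.19, limma adjusted p = 0.00753), and SUCLA2 did not (-0.01, limma adjusted p = 0.925). Of 8 chain proteins outside the name rule 3 rose, ETFB, ETFA and NDUFAB1, and ETFA, the alpha chain of the electron carrier of fatty acid oxidation, went from 17.2 ± 0.127 to 20.9 ± 0.297 FPKM (SD, n = 3 per group, limma adjusted p = 0.00106). With the regional median subtracted ETFA kept its call (0.22, limma adjusted p = 0.00297), while ETFB, on chromosome 19, at 0.07 (limma adjusted p = 0.551) and NDUFAB1 at 0.14 (limma adjusted p = 0.0521) did not.

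Of 15 genes that transcribe or maintain mitochondrial DNA, 1 rose (TWNK, the helicase) and 3 fell. That is 26.7% called, where 24.2% of all genes tested were, 11.9% as rising and 12.3% as falling. In the lists below the share was 18.8% for RNA processing, 0% for nuclear regulators and 71.4% for nucleotide and phosphate exchange. It was 11.1% for cristae and 14.3% for reactive oxygen defence. MTERF3, which is known as a brake on mitochondrial transcription, went from 16.6 ± 0.564 to 12.5 ± 0.234 FPKM (SD, n = 3 per group, log2 fold change -0.38, limma adjusted p = 0.000839). The gene lies on chromosome 8, and its value with the regional median subtracted was -0.18 (limma adjusted p = 0.0158). MGME1, a nuclease, and TOP1MT, the mitochondrial topoisomerase, both had log2 fold changes of -0.23. TOP1MT, also on chromosome 8, lost its call with the regional median subtracted (limma adjusted p = 0.0746). Of 16 mitochondrial RNA processing genes 3 rose, with GRSF1 at 16.3 ± 0.629 and 19.4 ± 0.270 FPKM (SD, n = 3 per group, limma adjusted p = 0.00480), FASTKD5 at a log2 fold change of 0.21 and HSD17B10 at 0.20. Of these, FASTKD5 alone kept its call with the regional median subtracted (limma adjusted p = 0.0215), and GRSF1 then stood at 0.07 (limma adjusted p = 0.204) and HSD17B10 at 0.17 (limma adjusted p = 0.0825). None of 8 tested nuclear regulators was called by limma, 2 had rises and 1 a fall at an unadjusted p under 0.05, and voom called 1 in each direction. Among 7 genes of nucleotide and phosphate exchange 3 rose (SLC25A6, SLC25A3 and SLC25A5) and 2 fell. The ADP/ATP carriers parted, with SLC25A6 at a log2 fold change of 0.19 (0.16 and not called with the regional median subtracted, limma adjusted p = 0.0670) and the muscle and brain form SLC25A4 at -0.25 (13.2 ± 0.0691 to 10.9 ± 0.412 FPKM, SD, n = 3 per group, limma adjusted p = 0.00400), and VDAC3, an outer membrane pore encoded on chromosome 8, had -0.28, or -0.05 with the regional median subtracted. Of 9 cristae genes 1 fell, C19orf70 (chromosome 19, not called with the regional median subtracted, limma adjusted p = 0.326), and of 7 genes of reactive oxygen defence 1 rose, GPX4.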

How the data were processed

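The authors deposited 1 table of FPKM, made with HISAT2 2.0.5 and featureCounts 1.5.0-p3 on hg38, per the submitters' processing notes. The sources used here do not give the annotation, strand setting, filters or any further scaling. The recovered fragments exceed the library size implied by the FPKM by 0.416 to 1.24% in shNC and 1.71 to 2.72% in shMYT1, so the deposited values are not scaled to their own fragment totals. GENCODE 29 supplied symbols, types and positions for 99.59% of gene IDs. Fragments were recovered from FPKM times exon length, whole within 0.01 for 97 of 100 members, and floors from them cover counting error only. The 95% intervals given are those of the limma fit and not of the fragments.

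The 14106 genes averaging 1 FPKM or more were tested together after a log2(FPKM + 1) transform, using limma 3.58.1 under R 4.3.3 (trended variance, both sides, Benjamini-Hochberg). Called means an adjusted p below 0.05. Each fold change is the shMYT1 mean less the shNC mean of those log2 values, and so is too small where FPKM is low. The fit was tested on simulated data. There were 17 alternatives (pseudocount, filter, scaling, variance model, fragment-based voom, replicate block, omissions of a library, regional median of 50 neighbours, protein-coding genes only) and 2 subset counts added after seeing the data.

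Named were all mitochondrial members, all called nuclear members, the highest and lowest tested nuclear member of each complex, isoform groups, SDHA to SDHD, MYT1 and up to 3 called members of each related list with the largest change. Others (MT neighbours, overlapping genes, stalk subunits, NDUFB7) were named after their values were seen. 1 gene that the rule selects is not reported here. Members and lists were chosen with earlier results of these data known.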

Additional observations from a re-analysis of the deposited data

How the results depend on the processing

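Counts of calls depended on the fit more than single strong members did. Against 17 nuclear members that rose, 10 rose with no filter on low values, 10 when all libraries were brought to 1 FPKM total and 11 with the regional median removed. Leaving out 1 library gave 8 (without shNC replicate 2) to 15, with 9 without shNC replicate 1 and 10 without shMYT1 replicate 3. Against 4 that fell, 1 fell with the regional median removed and 1 without the members of chromosomes 8 and 19, a count added after seeing the data. Omissions gave 1 (without shMYT1 replicate 1) to 4, with 2 without shNC replicate 2 or shMYT1 replicate 3. Of the mitochondrial members, 0 rose with no filter and 6 with voom on recovered fragments, against 3, and 2 to 4 in the omissions. With no filter the variance trend was fitted over all 32434 gene IDs, and the fold changes of these members stayed the same. For MT-CO2 the log2 fold change was 0.25 in both fits, with a limma adjusted p of 0.557 against 0.00268. Under quantile normalization 1 mitochondrial member fell, against 0, namely MT-CO3 at -0.10 (limma adjusted p = 0.000325), while MT-CO1 was at 0. That method gives every library the same set of values. MT-CO1, whose rank stayed the same, was therefore at 0 by construction. The value and p of MT-CO3 follow from its exchange of ranks with MT-CO2. The 2 other reversals were UQCRB (0.031) and COX6C (0.064) with the regional median removed. All genes called ranged from 2038 (without shNC replicate 2) to 3048 in the omissions, with 2195 without shNC replicate 1 and 2196 without shMYT1 replicate 1, against 3420. In the related lists, 9 rose with no filter, 9 on rescaling, 10 with no variance trend and 5 to 14 in the omissions, against 16, and 7 fell with the regional median removed, against 15. Rescaling moved the median of all genes from -0.005 to -0.035.

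Replicate numbers are shared by the groups, but same-numbered libraries deviated together only weakly (correlations 0.03, 0.01 and 0.04, each library's best match being its own number, a hint from the data). With a replicate block 18 nuclear members rose, 5 fell and 2 mitochondrial members rose. SDHC (limma adjusted p = 0.0528) and MT-CO1 (0.112) lost their calls, NDUFA2, NDUFB7 and ATP5MG gained one, and 3381 of all genes were called.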

Other observations

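Pseudogene copies of these genes are also listed in the table. The 58 pseudogene rows named after nuclear members summed to 52.3 to 58.5 FPKM in shNC and 55.7 to 61.8 FPKM in shMYT1, ranges that overlap. The 81 nuclear pseudogene rows of mitochondrial mRNAs summed to 503 ± 28.9 FPKM in shNC and 503 ± 16.4 FPKM in shMYT1 (SD, n = 3 each). Of these, MTATP6P1, MTND2P28 and MTCO1P12, neighbours on chromosome 1, held most, at means of 251, 197 and 40 FPKM over the 6 libraries. Fragments of mitochondrial mRNAs that fit these copies cannot be assigned with certainty.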
